A study of Arabidopsis thaliana with 18 samples.

Results

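The 15 genes described here fell by 4 or more log2 units, a factor of 2 per unit, during 72 h of vascular induction of Arabidopsis thaliana cotyledons, in the wild type and in both bes1 mutant lines, and ended at nearly the same signal in all 3. They were chosen on measured values: a probe set with 1 gene was taken when its mean 72 h minus 0 h difference was -4 or lower in WT, bes1-1 and bes1-3, and when the 72 h means of bes1-1 and bes1-3 each lay within 0.75 of the WT mean. Genes of the photosystem, light-harvesting and plastid NDH families, SWEET and PDF genes and 4 further genes were left out by name; of the genes so named, AT1G62510 and AT5G39580 met the values. The rule kept 15 of the 16722 single-gene probe sets. The 72 h minus 0 h changes and the differences between genotypes at 72 h are therefore a description and carry no test here.

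The study measured RNA on 18 Affymetrix arrays in 6 groups of 3, with replicates numbered 1 to 3. Cotyledons came from 6-day-old plants grown in liquid MS medium at 22 °C under continuous light, of the Columbia wild type (WT) or of bes1-1 or bes1-3, which are T-DNA insertion alleles of BES1. The 0 h groups had no culture. The 72 h groups had been cultured in VISUAL medium with 2,4-D at 1.25 mg/L, kinetin at 0.25 mg/L and bikinin at 10 µM. All 3 genotypes received the same medium. The change over time thus holds 72 h of ageing, the culture, both hormones and bikinin together, and these cannot be told apart. Each mutation is represented by 1 line, and the labels do not say how much BES1 transcript either line keeps; the BES1 probe set was not analysed here, so the mutants were not checked by their own gene.

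VISUAL is a culture in which leaf mesophyll cells lose their photosynthetic state, pass through a procambium-like state and form xylem and phloem cells. 2,4-D is an auxin and kinetin a cytokinin. Bikinin inhibits GSK3-like kinases such as BIN2, which otherwise hold back BES1, a transcription factor of brassinosteroid signalling with several close relatives. The platform and gene tables name the 15 genes by locus only, so the protein families and roles given below are background from general knowledge of these loci and not results.

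The label under which the genes were grouped calls them leaf genes. With the deposited values none of the 15 was among 137 genes of 8 leaf-function lists (chlorophyll synthesis, Calvin cycle, photorespiration, carbonic anhydrases, starch, cuticle and wax, glucosinolates, light signalling) or among the markers listed for 6 cell types. Only 21 of the 137, in 6 of the 8 lists, were named by a single-gene probe set, which the rule demands. Photosystem and light-harvesting genes were also left out by name. Most listed genes thus could not be members, and the lists do not decide the label. The 15 genes are called by the rule. By family they hold 3 membrane transport proteins, 3 proteins of defence families, 4 of regulatory or protein-handling families, 2 enzymes, 1 peptide of iron signalling and 2 genes for which no role is given. The values below are log2 signals in the order of replicates 1, 2 and 3. The 6 arrays of replicate 1 were on a lower scale, with lower quartiles of 3.14 to 3.22 against 4.01 to 4.14 on the 12 arrays of replicates 2 and 3, so a dip in replicate 1 in what follows is shared by many probe sets.

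The membrane transport group begins with AT5G26200, a member of the mitochondrial carrier family, whose proteins move metabolites across the inner membrane of the mitochondrion. In WT, AT5G26200 read 8.86, 8.55 and 8.59 at 0 h and 1.9, 2.81 and 2.48 at 72 h, a mean change of -6.27. Its bes1-1 arrays read 8.11, 7.94 and 7.98 at 0 h and 1.92, 2.63 and 2.75 at 72 h, a mean change of -5.57. Its bes1-3 arrays read 8.76, 8.96 and 8.48 at 0 h and 2.14, 2.34 and 2.74 at 72 h, a mean change of -6.33. The 9 arrays at 72 h lay between 1.9 and 2.81 and the 9 at 0 h between 7.94 and 8.96, so the times did not overlap, and the 3 bes1-1 arrays were the lowest at 0 h. AT4G36850 stood at 10.7, 11.56 and 11.08 in WT before culture and at 6.26, 7.42 and 7.09 after it, a change of -4.19. The matching bes1-1 signals were 11.3, 11.21 and 11.43 and then 5.85, 7.59 and 6.46, with a change of -4.68. For bes1-3 they were 10.45, 10.57 and 11.24 and then 5.75, 6.69 and 6.73, with a change of -4.36. AT4G36850 codes for a PQ-loop repeat membrane protein, a family that includes amino acid exporters of the vacuole and lysosome, and it stayed well above the lower quartile of its arrays at 72 h. On the WT arrays AT1G35350 went from 9.63, 9.86 and 9.77 at 0 h to 6.16, 4.47 and 5.68 at 72 h, or -4.32 on average. With bes1-1 it went from 10.14, 10.01 and 10.39 to 5.89, 5.63 and 6.26, or -4.25 on average. With bes1-3 it went from 9.17, 9 and 9.93 to 4.67, 5.43 and 4.3, or -4.56 on average. AT1G35350 belongs to the PHO1-like proteins with an EXS domain, the family of the phosphate exporter PHO1. Its replicates scattered more at 72 h than those of the carrier gene, with WT replicate 2 the lowest WT array and replicate 1 the highest, while at 0 h every bes1-1 array was above every WT and bes1-3 array.

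The defence families hold an intracellular receptor, a lectin and a defensin-like peptide. AT4G19530 stood at 10.57, 10.85 and 10.72 in WT before culture and at 4.95, 5.59 and 5.69 after it, a change of -5.3. The matching bes1-1 signals were 10.65, 10.6 and 10.84 and then 5.42, 6.41 and 6.23, with a change of -4.67. For bes1-3 they were 10.57, 11.21 and 10.8 and then 5.05, 5.73 and 5.64, with a change of -5.39. AT4G19530 codes for a TIR-NBS-LRR protein, the class of intracellular receptors that detect pathogen effectors. Its 0 h arrays were close to each other in all genotypes, and its smallest mean fall was in bes1-1. On the WT arrays AT1G52100 went from 6.64, 7.74 and 7.85 at 0 h to 2.85, 3.07 and 3.35 at 72 h, or -4.32 on average. With bes1-1 it went from 6.77, 7.98 and 7.97 to 2.53, 2.55 and 2.66, or -4.99 on average. With bes1-3 it went from 6.9, 8.15 and 8.03 to 1.66, 3.04 and 2.34, or -5.35 on average. AT1G52100 codes for a jacalin-type lectin, a carbohydrate-binding protein. Its 72 h means were below the lower quartile of the arrays in each genotype, a level not shown to be above background, so its falls are bounds and the differences between them are not read. In WT, AT3G05730 read 8.57, 10.57 and 10.25 at 0 h and 3.71, 5.89 and 5.33 at 72 h, a mean change of -4.82. Its bes1-1 arrays read 8.36, 10.49 and 10.64 at 0 h and 3.94, 5.74 and 5.93 at 72 h, a mean change of -4.63. Its bes1-3 arrays read 8.24, 10.42 and 10.63 at 0 h and 3.3, 6.32 and 5.63 at 72 h, a mean change of -4.68. AT3G05730 codes for a defensin-like peptide, of a family of small secreted cysteine-rich proteins. In each group its replicate 1 array was lower than both other arrays, so that the falls within a replicate number were close (-4.86, -4.67 and -4.92 in WT) although the levels were not.

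The regulatory and protein-handling families gave 4 genes. In WT, AT5G26280 read 9.05, 9.89 and 9.98 at 0 h and 3.43, 4.4 and 4.56 at 72 h, a mean change of -5.51. Its bes1-1 arrays read 8.97, 10.22 and 9.98 at 0 h and 3.3, 3.87 and 4.22 at 72 h, a mean change of -5.93. Its bes1-3 arrays read 9.05, 10.38 and 9.75 at 0 h and 3.97, 4.07 and 3.61 at 72 h, a mean change of -5.84. AT5G26280 codes for a TRAF-like protein with a MATH domain, a domain of protein interaction. The arrays of the 2 times were apart in each genotype, and the bes1-1 mean at 72 h was just below the lower quartile. AT4G21870 stood at 8.43, 9.32 and 9.15 in WT before culture and at 3.52, 3.96 and 3.88 after it, a change of -5.18. The matching bes1-1 signals were 8.66, 9.21 and 9.07 and then 3.4, 3.88 and 4.04, with a change of -5.21. For bes1-3 they were 8.19, 9.43 and 9.12 and then 3.33, 4.17 and 3.9, with a change of -5.11. AT4G21870 codes for an HSP20-like protein, the superfamily of small heat shock chaperones. Its 3 mean falls lay within 0.09 of each other, although the bes1-1 mean at 72 h was below the lower quartile. On the WT arrays AT5G47610 went from 9.88, 10.36 and 10.24 at 0 h to 5.1, 6.28 and 6.11 at 72 h, or -4.33 on average. With bes1-1 it went from 9.73, 9.91 and 9.99 to 4.32, 6.01 and 5.53, or -4.59 on average. With bes1-3 it went from 9.86, 11.09 and 10.23 to 4.52, 5.79 and 5.3, or -5.19 on average. AT5G47610 codes for a RING-type protein, a class of ubiquitin ligases that mark proteins for degradation. All its 72 h means were above the lower quartile, with replicate 1 the lowest array in each genotype. In WT, AT2G43140 read 7.78, 8.83 and 8.83 at 0 h and 3.65, 4.52 and 4.44 at 72 h, a mean change of -4.28. Its bes1-1 arrays read 8.05, 8.29 and 8.32 at 0 h and 3.46, 3.92 and 4.48 at 72 h, a mean change of -4.27. Its bes1-3 arrays read 7.71, 8.29 and 8.66 at 0 h and 3.61, 4.32 and 4.52 at 72 h, a mean change of -4.07. AT2G43140 codes for a basic helix-loop-helix (bHLH) transcription factor and was the gene nearest to the threshold, with a smallest mean fall of -4.07.

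Both enzymes belong to large families of specialised metabolism. AT2G29290 stood at 8.09, 8.31 and 8.26 in WT before culture and at 2.6, 3.6 and 3.23 after it, a change of -5.07. The matching bes1-1 signals were 8.47, 7.74 and 8.62 and then 2.75, 4.42 and 3.8, with a change of -4.62. For bes1-3 they were 7.86, 7.99 and 8.48 and then 2.15, 2.67 and 3.5, with a change of -5.34. AT2G29290 codes for a tropinone reductase-like short-chain dehydrogenase. Its replicate 2 pair in bes1-1 fell by 3.31, the smallest of the 135 falls measured between arrays of the same genotype and number, and bes1-1 replicate 2 at 72 h was also the highest of its 9 cultured arrays. On the WT arrays AT3G44970 went from 7.47, 8.05 and 8.35 at 0 h to 2.58, 4.25 and 3.82 at 72 h, or -4.4 on average. With bes1-1 it went from 7.92, 8.17 and 7.56 to 2.79, 3.65 and 3.96, or -4.42 on average. With bes1-3 it went from 7.67, 8.72 and 8.26 to 2.45, 4.03 and 4.1, or -4.69 on average. AT3G44970 codes for a cytochrome P450, a class of oxygenases. The 9 cultured arrays of this gene ranged from 2.45 to 4.25, with replicate 1 the lowest in each genotype.

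The iron gene was AT1G47395, which codes for an IRON MAN peptide, a small peptide that promotes the iron deficiency response in Arabidopsis. In WT, AT1G47395 read 6.7, 8.4 and 7.94 at 0 h and 2.2, 3.14 and 2.81 at 72 h, a mean change of -4.96. Its bes1-1 arrays read 7.18, 8.42 and 7.8 at 0 h and 2.92, 2.93 and 2.92 at 72 h, a mean change of -4.88. Its bes1-3 arrays read 5.94, 8.83 and 7.93 at 0 h and 2.46, 2.54 and 2.45 at 72 h, a mean change of -5.09. At 0 h bes1-3 replicate 1 was the lowest and bes1-3 replicate 2 the highest of its 9 arrays, while the 3 cultured bes1-1 arrays were nearly equal.

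For the remaining pair no role is given. AT1G27020 stood at 10.89, 11.53 and 11.51 in WT before culture and at 5.33, 5.53 and 5.77 after it, a change of -5.77. The matching bes1-1 signals were 10.89, 11.39 and 11.77 and then 5.58, 6.13 and 6.57, with a change of -5.26. For bes1-3 they were 11.1, 11.62 and 11.58 and then 5, 5.99 and 5.45, with a change of -5.95. AT1G27020 ended far above the lower quartile in all genotypes and its 0 h and 72 h arrays were separated by more than 4. On the WT arrays AT5G03120 went from 7.98, 8.1 and 8.81 at 0 h to 2.47, 3.49 and 2.93 at 72 h, or -5.33 on average. With bes1-1 it went from 8.11, 8.53 and 8.73 to 3.47, 3.93 and 3.55, or -4.81 on average. With bes1-3 it went from 7.75, 8.37 and 8.71 to 2.82, 3.22 and 3.77, or -5 on average. AT5G03120 ended below the lower quartile in each genotype, so its differences at 72 h lie in a range not shown to be above background.

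**Figure D1:**
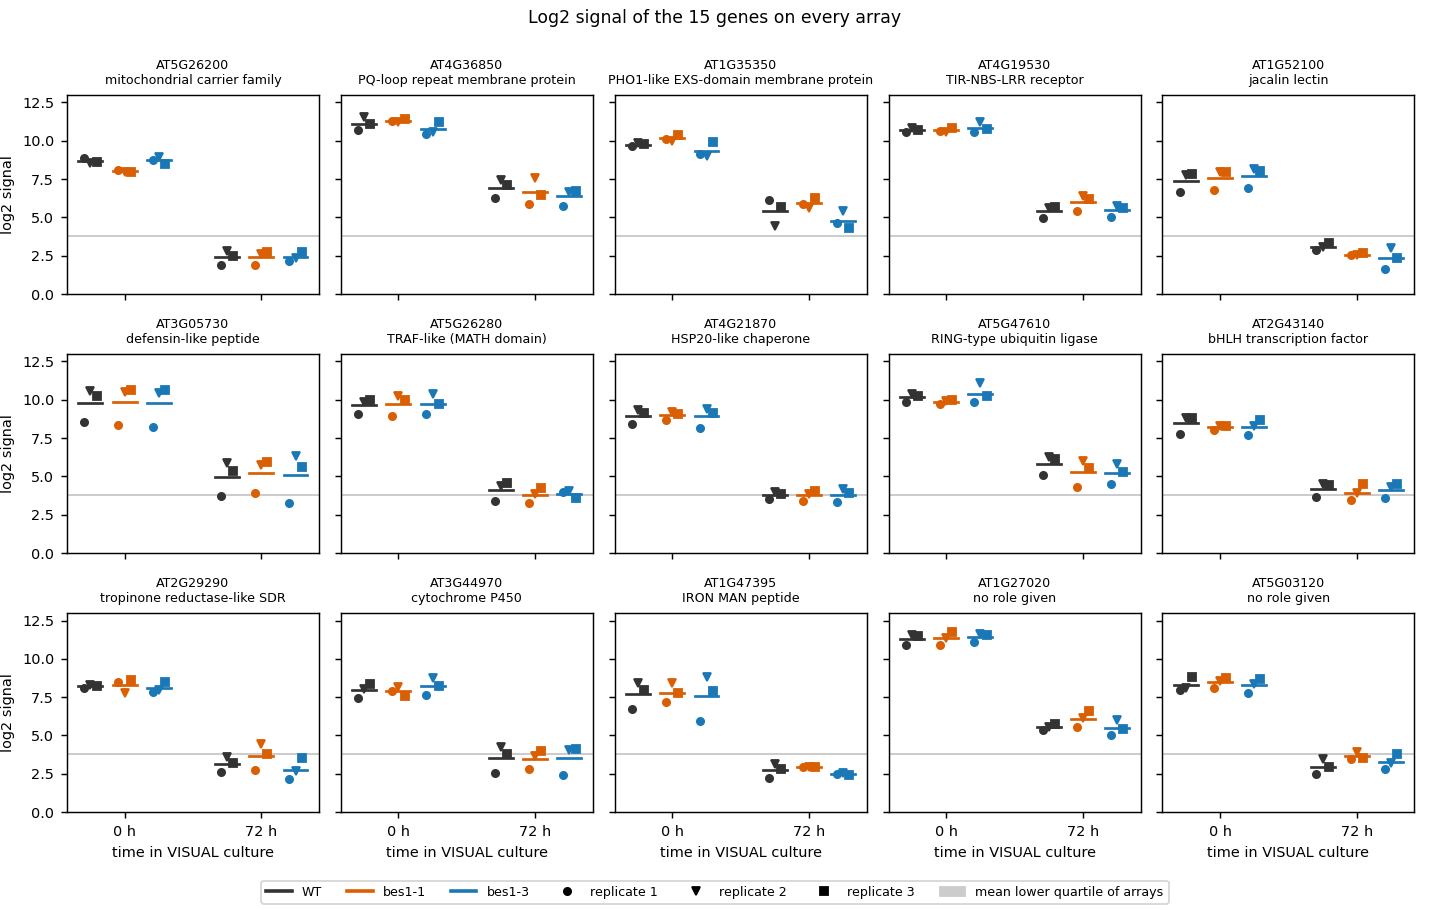
Log2 signal of each of the 15 genes (1 panel per gene) before and after culture, with 1 point per array, shaped by replicate and coloured by genotype, a short bar for each mean of 3 arrays and a grey line at the mean lower quartile of the arrays. In every panel the 0 h and 72 h arrays of a genotype are apart, and the 72 h means of AT5G26200, AT5G03120, AT2G29290, AT1G47395, AT1G52100 and AT3G44970 lie under the grey line.

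Over the 15 genes the mean change ranged from -6.27 to -4.19 in WT, with a median of -4.96. In bes1-1 the range was -5.93 to -4.25 with a median of -4.68, and in bes1-3 it was -6.33 to -4.07 with a median of -5.11. The medians over all 38408 probe sets were -0.03, 0.03 and 0.03. In limma's fit all 15 were called lower at an adjusted p below 0.05 in each induction, where 10.8% of all probe sets were called lower in WT, 9.76% in bes1-1 and 11.4% in bes1-3. With the replicate number as a block all 15 were again called lower, as were 20.8%, 21.9% and 21.3% of all probe sets. The rule used these contrasts, so nothing is read from those counts. The same holds for the arrays of the 2 times not overlapping, which was so for all 15 genes in each genotype and for 16.1%, 14.7% and 16.3% of all probe sets in the lower direction. Of the 135 falls between arrays of the same genotype and number, 122 were 4 or larger and all were 3 or larger, with a range of -6.96 to -3.31. Among the 7 genes whose 72 h means were above the lower quartile in every genotype, the smallest fall was in bes1-1 for 4, in WT for 2 and in bes1-3 for 1, and the falls of a gene in the 3 genotypes lay within 0.19 to 0.86 of each other.

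The genes divided by where they ended. AT5G26200, AT5G03120, AT2G29290, AT1G47395, AT1G52100 and AT3G44970 had 72 h means below the mean lower quartile of their arrays in all 3 genotypes, a level not shown to be above background. For AT5G26280 and AT4G21870 this was so in bes1-1 alone, and the other 7 stayed above the quartile in every genotype. At 0 h every gene's mean stood at least 3.6 above the quartile in each genotype. A mean below the quartile sets only a bound on the fall, which was counted from the 0 h mean down to the quartile of the 72 h arrays. These 20 bounds ranged from at least 3.68 to at least 5.93, and 15 of them were 4 or more. For AT5G26200 the fall was at least 4.94 in WT, at least 4.21 in bes1-1 and at least 4.97 in bes1-3. The bound was below 4 for AT1G52100 in each genotype (at least 3.68, 3.78 and 3.93 in WT, bes1-1 and bes1-3) and for AT1G47395 in WT and bes1-3 (at least 3.95 and 3.8). A gene's fall in whole cotyledons can come from fewer cells that express it or from less RNA per cell, and the arrays cannot tell these apart.

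**Figure D2:**
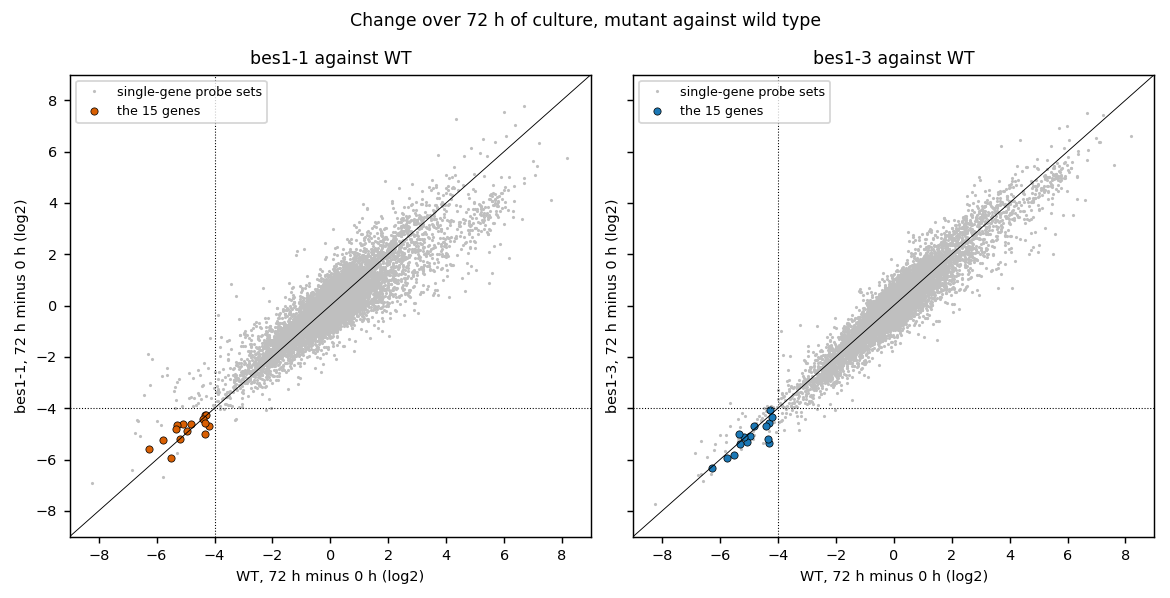
Mean log2 change from 0 h to 72 h in bes1-1 (left) and bes1-3 (right) against that in WT, with single-gene probe sets in grey, the 15 genes in colour, a diagonal of equal change and dotted lines at the threshold of -4. The 15 genes lie beside the diagonal in the lower left corner, between -6.33 and -4.07, and grey points above the diagonal left of the WT threshold are genes that fell less in the mutants.

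The rule also bounded the differences after culture. At 72 h bes1-1 minus WT ranged from -0.54 to 0.69 over the 15 genes, with a median of 0.04 and 8 genes above 0. The range for bes1-3 minus WT was -0.74 to 0.31, with a median of -0.06 and 5 genes above 0. A 72 h mean within 0.75 of WT in both mutants was common: it held for 90.4% of the 16722 single-gene probe sets. Among the 25 single-gene probe sets that fell by 4 or more in every genotype it held for 17, or 68.0%, before the genes left out by name. In WT alone 63 single-gene probe sets fell by 4 or more, and 38 of these did not do so in both mutants. A further 16 probe sets that met the same values had several genes or were unnamed here and are not described.

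The thresholds had genes close on either side. On the fold, AT2G43140, AT4G36850 and AT1G35350 were nearest inside, with smallest mean falls of -4.07, -4.19 and -4.25. Nearest outside was AT1G22330, with -4.03 in WT, -3.99 in bes1-1 and -3.96 in bes1-3. Next came MT1B (AT5G56795), a metallothionein, which are metal-binding proteins, with -4.75, -3.93 and -4.56, and AT1G47400, an IRON MAN gene, with -3.8, -3.9 and -3.97. Both ended below the lower quartile in each genotype, so for MT1B the falls are at least 3.33, 2.35 and 3.1. On the tolerance at 72 h, AT1G52100 was nearest inside, with -0.74 for bes1-3 minus WT. Just outside were AT3G55240, AT3G20395 and AT1G68238, for which bes1-1 minus WT was 0.76, 0.86 and 0.92. AT3G20395 fell by 8.23 in WT, by 6.9 in bes1-1 and by 7.75 in bes1-3; its WT mean at 72 h was below the lower quartile, so the WT fall is at least 7.71. Of the 8 genes that fell by 4 or more but were outside the tolerance, 7 were not left out by name. Their 72 h means were higher in bes1-1 than in WT, by 0.76 to 1.53. At 72 h AT3G55240 and AT3G20395 were below the lower quartile in WT, and AT1G68238 and AT4G15700 in both WT and bes1-1. The differences of these genes are thus not read. All 7 were picked by their 72 h differences, so the shared direction is a description.

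Before culture the genotypes were compared with limma. The rule used no difference between genotypes at 0 h, but it used the 0 h mean of each genotype. Its demand for a large fall keeps all 0 h levels high. Together with the limit at 72 h, it works against genes that were much lower at 0 h in 1 genotype. The 0 h results thus describe genes chosen in this way and are no independent test of likeness before culture. The 3 comparisons share arrays and are not independent of each other. None of the 15 genes was called by limma in bes1-1 versus WT, where 0.0208% of all probe sets (8) were called, in bes1-3 versus WT, where 0.00781% (3) were, or in bes1-1 versus bes1-3, where 0.0703% (27) were. With so few calls among all probe sets, a count of 0 among 15 genes is close to the background. At an unadjusted limma p below 0.05 there was 1 of the 15 genes in bes1-1 versus WT, 0 in bes1-3 versus WT and 1 in bes1-1 versus bes1-3. Of all 38408 probe sets there were 893, 364 and 1214. A count of 1 among 15 is not read as a result. The replicate number was also used as a block in the last 2 comparisons, where deviations of arrays of the same number correlated. There 0.0156% and 0.784% of all probe sets were called and again none of the 15 genes.

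The gene with an unadjusted p below 0.05 was AT5G26200, the mitochondrial carrier gene, in both comparisons. Its bes1-1 mean of 8.01 differed from the WT mean of 8.67 by -0.66 ± 0.27 (SE, 3 arrays a group). The 95% interval was -1.24 to -0.08 and the arrays did not overlap. Limma's p was 0.0294 and its adjusted p was 1.0. Against the bes1-3 mean of 8.73 the difference was -0.72 ± 0.27, with an interval of -1.31 to -0.14 and lower in 3 of 3 replicates. Limma's p was 0.0184, with an adjusted p of 1.0 and an adjusted p of 0.185 with the block. Within replicates 2 and 3 the differences were -0.61 and -0.76. Neither is a call. AT1G35350, the PHO1-like gene, was higher in every bes1-1 array than in any other 0 h array, by 0.42 ± 0.39 over WT and by 0.81 ± 0.39 over bes1-3, with limma adjusted p of 1.0 for both. In bes1-1 versus WT these were the only genes of the 15 whose arrays did not overlap, 1 lower and 1 higher, as were 2.97% and 1.08% of all probe sets; in bes1-1 versus bes1-3 they were again 1 lower and 1 higher, against 3.76% and 1.71%. In bes1-3 versus WT there were none, against 1.16% lower and 0.927% higher.

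For the other genes the intervals at 0 h without the block all included 0. Over all 15 genes bes1-1 minus WT ranged from -0.66 to 0.42 (median 0.04, 10 above 0 and 5 below). For bes1-3 minus WT the range was -0.39 to 0.28 (median -0.02), and for bes1-1 minus bes1-3 it was -0.72 to 0.81 (median 0.0). No gene differed by 1 or more, and the standard errors without the block were 0.27 to 0.92. The 95% intervals then reached from -2.0 to 2.03 at their widest, for AT3G05730, whose replicate 1 arrays stood apart in every group. With the replicate block the standard errors were 0.14 to 0.41, and for AT3G05730 the intervals narrowed to -0.49 to 0.43 in bes1-3 versus WT and to -0.4 to 0.53 in bes1-1 versus bes1-3. In these comparisons the blocked interval of 3 and 5 of the 15 genes still reached a difference of 1, with outer bounds of -1.23 to 0.92 and -1.24 to 1.65. In bes1-1 versus bes1-3 the difference was -0.52 for AT5G47610 (blocked interval -1.04 to 0.0) and 0.56 for AT4G36850 (-0.09 to 1.21). These 2 differences were not small beside their blocked intervals. A missed threshold does not show that the 0 h levels were equal.

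**Figure D3:**
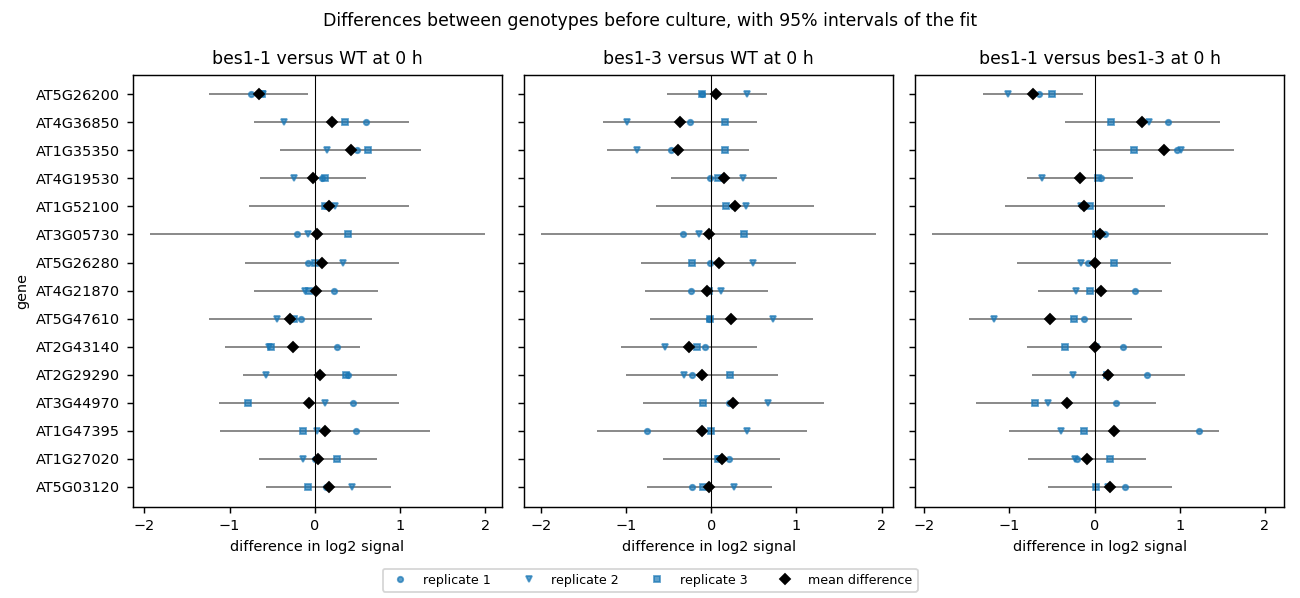
Differences in log2 signal between genotypes before culture for the 15 genes, in 3 panels (bes1-1 versus WT, bes1-3 versus WT, bes1-1 versus bes1-3), with black diamonds for mean differences, lines for the 95% intervals of the fit without a block and blue points for the differences within each replicate number. AT5G26200 has intervals that stop short of 0 in the left (-1.24 to -0.08) and right (-1.31 to -0.14) panels, and the other intervals include 0.

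The pattern of AT5G26200 was compared with all others because its mean fall as deposited was the largest, a rank that rests on 72 h values below the lower quartile. It was most like that of 3 single-gene probe sets over the 18 arrays. The highest Pearson r, 0.993, was with AT4G19530, the TIR-NBS-LRR gene of the 15. Next came AT5G12470, with r of 0.99 and changes of -2.05, -1.8 and -1.95 in WT, bes1-1 and bes1-3, and MSRB9, a methionine sulfoxide reductase that repairs oxidised proteins, with r of 0.99 and changes of -4.87, -3.6 and -4.87. The 18 arrays share the step between the 2 times, and the likeness rests largely on it: within the 0 h arrays r was 0.3, 0.15 and 0.77, and within the 72 h arrays 0.71, 0.58 and 0.13. These correlations are descriptions over arrays of shared groups and replicate scales.

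Genes that lie beside each other on a chromosome can share regulation or be recent copies of each other, so the neighbours of the 15 genes were examined, a choice made with the members known. Of the 90 protein-coding genes among the nearest 3 on each side, 72 were measured, which here means named by a single-gene probe set. In WT limma called 12 of them lower and 7 higher, against 10.8% and 8.7% of all probe sets. The shares in this paragraph include unnamed probe sets, and the share among single-gene probe sets alone is not given. The counts were 10 lower and 7 higher in bes1-1 (9.76% and 10.9% of all probe sets) and 13 lower and 8 higher in bes1-3 (11.4% and 10.3%), and the neighbours' median changes were -0.03, -0.16 and -0.17. With the replicate block the counts lower and higher were 15 and 14 in WT (20.8% and 18.9% of all probe sets), 24 and 17 in bes1-1 (21.9% and 28.5%) and 25 and 15 in bes1-3 (21.3% and 24.2%). AT5G26200 and AT5G26280 lie on the same chromosome with 8 protein-coding genes between them.

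Some neighbours fell with their gene and others did not. AT1G47400, the IRON MAN gene next to AT1G47395, changed by -3.8 in WT, -3.9 in bes1-1 and -3.97 in bes1-3 (SE 0.77), with limma adjusted p of 0.00175, 0.00159 and 0.00112. Its 72 h means were below the lower quartile, so these falls are at least 3.73, 3.88 and 3.94. As for AT1G47395, its lowest 0 h array was bes1-3 replicate 1 (5.93) and its highest bes1-3 replicate 2 (9.22). The probe sequences were not used here, so signal shared between these related genes was not tested and the pair is uncertain as 2 separate measurements. MSRB9, 3 genes from AT4G21870, changed by -4.87, -3.6 and -4.87 (SE 0.21). AT5G26260, a further TRAF-like gene 3 genes from AT5G26280, changed by -2.32, -1.66 and -2.5 (SE 0.4). Nearer to AT5G26280, AT5G26290 changed by -0.04, -0.33 and -0.78 (SE 0.24), called lower in bes1-3 alone. AT5G26300 changed by 0.02, 0.0 and -0.01 (SE 0.39) and was not called. Near the lectin gene AT1G52100, AT1G52060, AT1G52070, AT1G52110, AT1G52120 and AT1G52130 were not called in any genotype. The same held for AT2G29300, AT2G29310 and AT2G29320 near AT2G29290. Which neighbours are copies of their gene was not tested. Of the TIR-NBS-LRR genes beside AT4G19530, AT4G19520 changed by -1.09, -1.77 and -1.78 (SE 0.28) and AT4G19510 by -0.83, -1.06 and -1.24 (SE 0.21), both called in each genotype and both far less than AT4G19530. AT4G19500, 3 genes from AT4G19530, changed by -0.63, -0.71 and -0.69 (SE 0.24) and was not called in any genotype. AT1G27030, next to AT1G27020, changed by -1.64, -2.13 and -1.73 (SE 0.28).

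Other neighbours rose. AT5G26190, next to AT5G26200, changed by 5.76 in WT, 3.89 in bes1-1 and 5.03 in bes1-3 (SE 0.45), the reverse of the carrier gene beside it. AT3G44960, next to the cytochrome P450 gene AT3G44970, rose by 3.8, 3.15 and 4.46 (SE 0.54). AT5G47635, the third gene from AT5G47610, rose by 4.1, 3.3 and 3.59 (SE 0.6), while AT5G47600 and AT5G47590 on the other side of the RING gene changed by -1.52, -1.08 and -1.75 (SE 0.27) and by -1.35, -2.45 and -1.98 (SE 0.34). AT5G26190, AT3G44960, AT5G47635, AT5G47600 and AT5G47590 were called by limma in each genotype, and most of the measured neighbours were not.

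**Figure D4:**
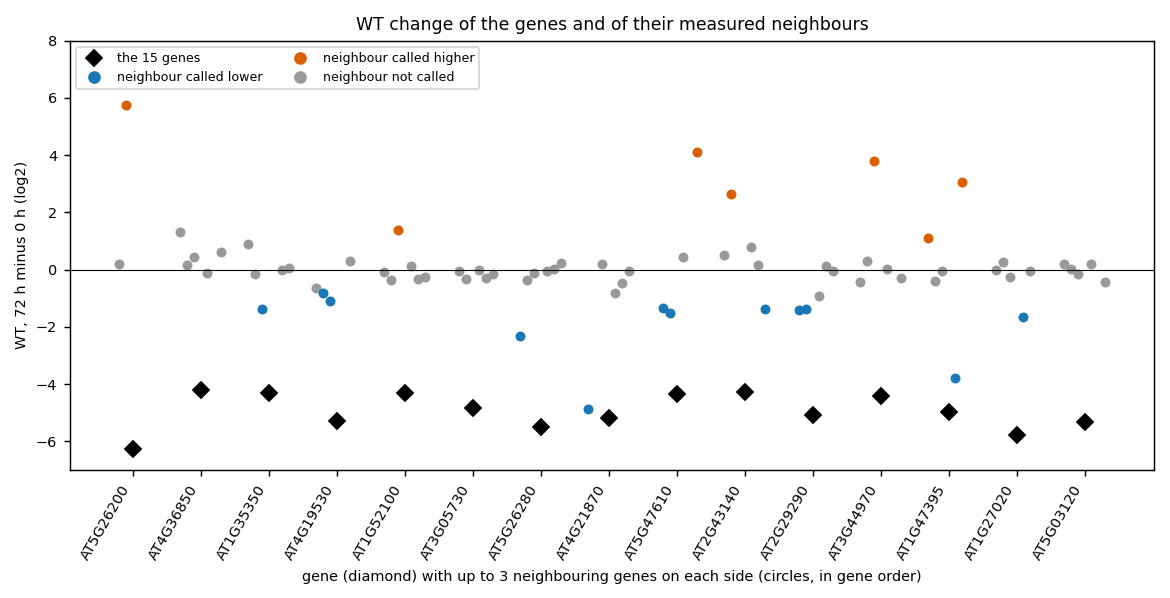
WT log2 change from 0 h to 72 h of each of the 15 genes (black diamonds) and of its measured neighbours among the nearest 3 protein-coding genes on each side (circles in gene order, blue where limma called them lower, orange where higher, grey where not called). Most neighbours sit near 0; the lowest are MSRB9 at -4.87 and AT1G47400 at -3.8, and the highest is AT5G26190 at 5.76.

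The leaf-function lists give the wider setting of the falls. Of their 137 genes 21 were measured; 17 of these were called lower by limma and 0 higher in each of WT, bes1-1 and bes1-3, with median changes of -1.98, -2.03 and -2.35. Only 1 of the 21 fell by 4 or more, AT3G55240 (RPGE2) of the light signalling list. It changed by -6.86, -6.42 and -5.76 (SE 0.46). The fall was at least 6.75 in WT and 5.7 in bes1-3, where the gene ended below the lower quartile. RPGE2 is named for repressing photosynthetic genes, so its fall is not read as a loss of leaf function. It was outside the 72 h tolerance by a small margin and enters the list of genes when arrays are rescaled or when replicate 2 or 3 is left out. In chlorophyll synthesis all 4 measured genes of 21 listed fell in each genotype, with medians of -2.72, -2.35 and -2.96. They included HEME2, of the tetrapyrrole pathway, with a WT change of -3.13 (SE 0.33), PORB, the light-dependent protochlorophyllide reductase, with -2.81 (SE 0.41), and CHLM, a magnesium protoporphyrin methyltransferase, with -2.62 (SE 0.32). In the Calvin cycle all 3 measured of 21 fell in each genotype: in WT PRK, phosphoribulokinase, changed by -2.79 (SE 0.6), SBPASE, a bisphosphatase of carbon regeneration, by -2.74 (SE 0.3), and RCA, Rubisco activase, by -1.59 (SE 0.31). These 3 genes are also the only measured mesophyll markers, 3 of 12 listed, so both lists rest on the same values.

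In photorespiration 5 of 6 measured genes of 17 listed fell in each genotype, with WT changes of -2.39 (SE 0.33) for GLYK, glycerate kinase, -2.26 (SE 0.36) for GLDT, a subunit of glycine decarboxylase, and -2.2 (SE 0.47) for PLGG1, the plastid glycolate and glycerate transporter. In starch metabolism 2 of 3 measured fell and in glucosinolate metabolism 1 of 2 (2 of 2 with the replicate block), in each genotype. Those 2 counts rested on single arrays in WT: the starch count went to 0 without WT_72h replicate 1, WT_0h replicate 2 or WT_0h replicate 3, and the glucosinolate count to 0 without WT_72h replicate 1 or WT_0h replicate 3. In light signalling 2 of 3 fell, AT3G55240 and HYH, a bZIP factor of light responses, with a WT change of -2.17 (SE 0.4). No listed carbonic anhydrase or cuticle gene was named by a single-gene probe set, and both lists were not analysed here. The 15 genes fell further than all but AT3G55240 of these measured genes, which follows from the threshold that chose them.

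Genes listed as markers of other cell types moved over the same 72 h. Both measured xylem markers of 10 listed rose in each genotype, with medians of 4.75, 2.48 and 3.55 in WT, bes1-1 and bes1-3. The procambium list rested on 2 measured genes of 6, CLE41 and CLE44, which rose with medians of 2.84, 3.07 and 2.65. Both code for a secreted signal peptide, so a rise of procambium cells was not shown. The others listed, among them PXY and WOX4, were not measured. Differences between genotypes in these markers were not tested. Of 3 measured phloem markers 2 rose and 1 fell. The 3 measured genes of the guard cell list were the stomatal lineage factors SPCH, MUTE and FAMA. SPCH and MUTE were called lower in each genotype. At 72 h MUTE was below the lower quartile in each genotype and SPCH in both mutants. FAMA changed by -0.29, -1.11 and -0.91 in WT, bes1-1 and bes1-3 and was called lower in bes1-1 alone. With the replicate block all 3 were called lower in every genotype. A loss of guard cells was not tested. No epidermis marker was named by a single-gene probe set, and of 5 measured reference genes of 10 listed limma called 0 in each genotype, also 0 at an unadjusted p below 0.05, with medians of 0.16, 0.08 and 0.33; with the replicate block 1, 1 and 3 were called higher. The part of a changing cell composition in the falls of the 15 genes was not tested.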

How the data were processed

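RNA of 18 cotyledon samples was measured, 1 biotin-labelled sample per array. The values the authors deposited, 1 for each probe set on each array, are taken as log2 signal; this base is an inference from their highest values of 14.0 to 14.19 per array. Affymetrix Expression Console made them, per the submitters' processing notes; the version, background correction and normalization used are not given. Array medians were 5.19 to 5.46 for replicate 1 and 5.91 to 6.25 for replicates 2 and 3, and the number of arrays limits the precision.

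The platform table pairs 16722 of the 38408 probe sets with 1 gene (16670 of them with a locus) and 759 with several, and leaves 20927 unnamed. The TAIR10.1 gene table gave names and the order of neighbours, with no coordinates. A further probe set with identical values existed for 7132. No sequences were used.

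The deposited log2 values of all 18 arrays were fitted as 6 group means with limma 3.58.1 in R 4.3.3 (lmFit, eBayes). P-values were adjusted over all probe sets after Benjamini and Hochberg; a call is an adjusted p below 0.05. No probe set was filtered out. The fit was also run on simulated data with independent noise and without the lower scale of replicate 1. That run does not cover this feature of the arrays. Group means below the mean lower quartile of their arrays count as not shown above background. Figures used matplotlib 3.10.9 in Python 3.11.15. Since no label says that replicates were separate plants or cultures, the p-values reflect the spread between these arrays alone, which may be technical.

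Deviations from group means correlated between arrays of the same number: r was 0.168 to 0.506 in the inductions and 0.189 to 0.517 in bes1-3 versus WT and bes1-1 versus bes1-3 at 0 h, each pair over 0.1, so the numbers were taken to pair those arrays. The lower scale of the replicate 1 arrays enters these deviations and was not separated from pairing. The correlations thus do not show that arrays of the same number belong together. In bes1-1 versus WT at 0 h r was 0.498, 0.011 and 0.093, and pairing was not shown.

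The members and lists were chosen with earlier results of these data known. Values per array are given for every gene of the rule: 8 with the largest mean fall and up to 3 more per family group named by rule, and the rest in addition. Also named were the 3 genes nearest each side of the fold threshold, up to 3 measured genes per list by size of the WT change, the 3 probe sets most like AT5G26200, and, chosen after their values were seen, genes near the tolerance and neighbours. Alternatives were quantile normalization, median centring, the replicate block, replicates 2 and 3 alone, only the groups compared, single arrays left out, and other thresholds of the rule.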

Additional observations from a re-analysis of the deposited data

How the results depend on the processing

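The list of genes moved with its thresholds: a fall of 3 or more gave 63 genes, a fall of 5 or more gave 4, and a tolerance of 0.5 gave 7, against 15. Quantile normalization kept 14 of the 15, without AT1G52100, and centring the arrays on their medians likewise; replicates 2 and 3 alone kept 14, without AT1G35350. AT3G55240, a gene of the light signalling list, entered under both rescalings and without replicate 2 or 3, and AT1G22330 under both rescalings. Leaving out 1 replicate number gave 16 to 20 genes, and without replicate 2 the list lost AT1G35350, AT1G52100 and AT5G03120. Counts of calls over all probe sets moved further. With the replicate block, quantile normalization and replicates 2 and 3 alone, the WT induction gave 15250, 12352 and 11884 calls against 7494, the bes1-1 induction 19372, 14700 and 14087 against 7939, and the bes1-3 induction 17502, 13812 and 14024 against 8358. Median centring gave 14564 in bes1-1 and 12686 in bes1-3; it moved the median of all probe sets to -0.12, -0.24 and -0.13 in WT, bes1-1 and bes1-3, and the higher share of the bes1-1 calls from 52.8% to 32.3%. Leaving out 1 array gave 6175 to 7047, 6170 to 7290 and 6705 to 7996 calls. At 0 h, bes1-1 versus WT gave 41 calls with the replicate block, 13 under either rescaling, 3 with only the 2 groups and 3 to 11 with an array left out (3 when it was bes1-1 replicate 2 or WT replicate 3, and 4 and 5 for WT replicates 1 and 2), against 8. For bes1-3 versus WT the block and quantile normalization gave 6 each, replicates 2 and 3 alone and the 2 groups alone gave 0, and left-out arrays 2 to 3, against 3. For bes1-1 versus bes1-3 the block gave 301, quantile normalization 54, centring 42, replicates 2 and 3 alone 8, the 2 groups alone 0, and left-out arrays 7 to 24, against 27 (7 without bes1-3 replicate 1 or 3, 10 without bes1-1 replicate 2, 13 without bes1-3 replicate 2, 16 without bes1-1 replicate 3). The higher share of those calls went from 18.5% to 33.3% under either rescaling, and in bes1-3 versus WT from 100% to 83.3% and 75%. The causes were not tested. Across 540 alternative values of the 45 differences of the 15 genes at 0 h, 0 were called, with a lowest adjusted p of 0.185, from the block. Of the other tested values of single genes, 4186 stayed on the same side of the adjusted p threshold, 213 came to pass it and 62 no longer did; 270 of the 4186 had the opposite sign, none of them called. Among list counts 34 moved. Of 540 untested changes of the 15 genes, 8 were smaller falls than 4, down to -3.79, each with an array left out: -3.97 for AT5G47610, -3.92 for AT3G44970 and -3.86 for AT4G36850 in WT without WT_72h replicate 1, -3.97 for AT4G36850 without WT_0h replicate 2, -3.84 for AT1G35350 without WT_72h replicate 2, -3.79 for AT3G05730 and -3.8 for AT2G43140 in bes1-3 without bes1-3_72h replicate 1, and -3.85 for AT2G43140 without bes1-3_0h replicate 3. The number of arrays and 72 h means near background limit the size of the falls that can be measured.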

Other observations

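Because an IRON MAN gene was among the 15, other genes of iron deficiency signalling were looked at, listed after the members were known; 4 of 15 were measured. AT1G47400 fell in each genotype, as given above; its WT arrays read 6.09, 8.43 and 7.86 at 0 h and 2.77, 4.46 and 3.74 at 72 h. PYE, a bHLH regulator of iron homeostasis in the root, changed by -1.82 in WT, -1.41 in bes1-1 and -1.99 in bes1-3 (SE 0.43), with limma adjusted p of 0.00529, 0.0275 and 0.00256. Its WT arrays went from 8.79, 9.61 and 9.26 to 7.19, 7.41 and 7.59, with no overlap. AT1G74770, of the BRUTUS-like ubiquitin ligases that limit the iron deficiency response, went the other way: its WT arrays read 4.38, 5.52 and 5.11 at 0 h and 6.9, 8.86 and 8.17 at 72 h, a change of 2.97 (SE 0.65, limma adjusted p 0.00304). Its changes of 0.94 in bes1-1 and 1.66 in bes1-3 were not called without the replicate block (adjusted p 0.36 and 0.0853) and were called higher with it (limma adjusted p 0.0148 and 0.000305, against 1.7e-06 in WT); the difference between genotypes was not tested. BHLH101, a bHLH factor induced by iron deficiency, was at 3.17 at 0 h and 3.14 at 72 h in WT, below the lower quartile at both times; its changes were not called without the block, and with it limma called it lower in bes1-1 (-0.62, adjusted p 0.018) and in bes1-3 (-0.54, adjusted p 0.0391), from levels not shown to be above background.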
